A study of Homo sapiens with 8 samples.

Results

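The 9 genes described here are SNHG1, SNHG5, SNHG6, SNHG7, SNHG8, SNHG12, SNHG15, GAS5 and ZFAS1, long non-coding RNA genes that host small nucleolar RNAs (snoRNAs). They were chosen by name and with their values known, because SNHG1 stood far higher in 1 numbered library of each constitutive group than in the other. They are 9 of the 26760 genes in the table, and all 9 had enough counts to be tested, among 12303 genes. RNA was sequenced in 8 libraries of LK2, a lung squamous carcinoma cell line, in 4 groups of 2. GFP control cells carried GFP in the vector pLEX_306 (replicate 1) or pLEX_307 (replicate 2). Constitutive DNp63 cells carried DNp63, the form of p63 without its N-terminal activation domain, in the same pair of vectors. The uninduced and induced groups both carried DNp63 in the doxycycline-controlled vector pLIX_403, and were kept for 6 days without the drug or with it at 2 µg/ml. The labels give no promoter for these vectors, and leave unsaid whether libraries within a group came from separate cultures or infections. The p-values below therefore measure only the spread between these libraries, and in the constitutive groups that spread includes the vector.

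A snoRNA host gene is transcribed and spliced like a messenger RNA gene. Its snoRNAs are cut from the introns and guide chemical modification of ribosomal RNA, box C/D snoRNAs directing methylation and box H/ACA snoRNAs directing pseudouridylation. The spliced exons of many such hosts start with a run of pyrimidines, the signature of 5′-terminal oligopyrimidine transcripts whose translation depends on growth signals. Exons without a long reading frame make several of these RNAs targets of nonsense-mediated decay, so that they build up when translation is blocked. In squamous lung cancer, p63 is a lineage factor and a frequently amplified gene.

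RefSeq gene models place 9 snoRNA entries inside SNHG1, 8 of them box C/D, and 11 inside GAS5, of which 10 are box C/D. SNHG5 hosts 2 and ZFAS1 hosts 3 box C/D snoRNAs, and SNHG6 hosts 1. SNHG7 hosts 2 box H/ACA snoRNAs, SNHG8 and SNHG15 host 1 each, and SNHG12 hosts 3 box H/ACA snoRNAs and 1 box C/D. The libraries were polyA-selected and snoRNAs carry no polyA tail, so the values below are read counts of the host genes and not levels of their snoRNAs. Splicing was not measured. Of 437 snoRNA rows, 381 were at 0 in all 8 libraries and 0 had enough counts for a test. The rows hosted by these genes held 3 counts for SNHG1 and 8 for SNHG12 over all 8 libraries, and 0 for the other 7 hosts.

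The start regions are shown for 5 hosts, because SNHG1, SNHG8, SNHG12 and GAS5 were the members over 2-fold higher in replicate 1 of both constitutive groups and SNHG5 was close to level there. Each line gives 50 bases before the annotated start and 50 bases from it on, 5′ to 3′ on the gene's strand, from the RefSeq promoter table of GRCh38.p14. Capitals mark the longest run of C and T that comes within 10 bases of the start, and TATAA.
SNHG1 (chr11:62855836-62855935, minus strand): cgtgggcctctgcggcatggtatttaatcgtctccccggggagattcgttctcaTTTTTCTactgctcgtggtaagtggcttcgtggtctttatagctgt
SNHG8 (chr4:118278712-118278811, plus strand): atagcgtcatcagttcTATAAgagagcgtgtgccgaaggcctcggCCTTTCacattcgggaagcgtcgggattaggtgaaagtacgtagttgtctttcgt
SNHG12 (chr1:28581824-28581923, minus strand): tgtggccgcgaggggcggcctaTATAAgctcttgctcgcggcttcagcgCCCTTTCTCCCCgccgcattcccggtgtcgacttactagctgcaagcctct
GAS5 (chr1:173868996-173869095, minus strand): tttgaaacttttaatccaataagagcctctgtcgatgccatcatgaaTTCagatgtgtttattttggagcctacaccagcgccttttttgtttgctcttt
SNHG5 (chr6:85678684-85678783, minus strand): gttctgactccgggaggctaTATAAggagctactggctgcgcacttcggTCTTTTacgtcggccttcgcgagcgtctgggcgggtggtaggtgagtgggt

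The run was 12 bases in SNHG12, a length reached by 4.5% of 35116 RefSeq promoters, and 11 bases in SNHG7, reached by 6.1%. It was 7 bases in SNHG1 and ZFAS1 (21.8%) and 6 bases in SNHG5 and SNHG8 (31.9%). GAS5 had 3 bases (86.1%), but the RefSeq start used there lies 163 bases upstream of the GENCODE start of the gene. Counted from the annotated start, the run began at -14 in SNHG7, -5 in SNHG8, -3 in GAS5 and -2 in ZFAS1. It began at -1 in SNHG5 and SNHG12 and at 4 in SNHG1. The runs of SNHG7 and GAS5 thus ended before the annotated start. These lengths do not show that a transcript starts with the run. TATAA began 25 to 35 bases before the start, on the gene's own strand, in 5 of the 7 members whose sequence was used (SNHG5, SNHG7, SNHG8, SNHG12 and ZFAS1), against 3.6% of all promoters. Over the whole window of 250 bases before to 50 after the start and on both strands, TATAA was in 6 of 7 members and 20.4% of promoters. CACGTG, the E-box bound by MYC among others, was in SNHG7 alone, 1 of 7 against 7.3%. TGATGNAA, the core of elements bound by ATF4 heterodimers, was in 0 of 7 against 3.6%. These matches describe letters in a window and show no binding. No sequence of SNHG15 or SNHG6 was used, and both are named only.

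Library totals ran from 2758158 to 10372248 counts, lowest in GFP replicate 1. TP63 was at 0.739 and 1.91 CPM (the count scaled to library size) in GFP, 1850 and 3816 in constitutive DNp63, 12.7 and 14.8 in uninduced, and 412 and 422 in induced libraries, so both systems carried the labelled gene and the constitutive pair differed in its level. The summed level of 15 squamous and basal epithelial markers, TP63 included, was 4376 to 4457 CPM in GFP, 8458 to 10367 in DNp63, 3412 to 3756 in uninduced and 4703 to 4906 in induced libraries. KRT8, a keratin of simple epithelia, made up the largest share in each control library. It averaged 2465 CPM in GFP, 3661 in DNp63, 1788 in uninduced and 2556 in induced libraries. The rise of the sum was thus mostly that of TP63 itself and KRT8, and no squamous or basal change is read from it. KRT15 and KRT17 averaged 1.10 CPM or below in every group. Among the keratins of basal cells, KRT14 was at 0 in every library, and KRT5 was at 398 and 18.8 CPM in constitutive DNp63 and at or below 0.635 CPM elsewhere. KRT6A was at 2.22 and 5.93 CPM in GFP, 557 and 395 CPM in DNp63, 4.23 and 4.96 CPM in uninduced and 24.0 and 26.2 CPM in induced libraries. The 3 neural markers, SOX2, NES and POU3F2, summed to 331 to 647 CPM in GFP and 72.6 to 113 in DNp63 libraries. The sum was 612 to 661 CPM in uninduced and 316 to 387 CPM in induced libraries. SOX2, which is also among the 15 squamous and basal markers, made up most of it. SOX2 averaged 397.6 CPM in GFP, 82.3 in DNp63, 555.9 in uninduced and 307.3 in induced libraries. Both sums count SOX2, so no neural change is read from the neural sum. The summed level of 7 fibroblast markers was 8.28 to 30.5 CPM over the libraries, that of 6 immune markers 0.194 to 1.14 CPM and that of 4 endothelial markers 0 to 2.33 CPM. The size behind each CPM value includes a trimmed mean (TMM) factor, and CPM is not corrected for gene length, so levels are compared between libraries and not between genes.

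Replicates 1 and 2 of the constitutive groups stood apart, with different vectors, and this is the difference by which the members were picked, so it is described without a test. SNHG1 was at 175.9 CPM (476 counts) in GFP replicate 1 and at 2.12 CPM (10 counts) in GFP replicate 2. It was at 179.2 CPM (627 counts) in DNp63 replicate 1 and at 6.98 CPM (36 counts) in DNp63 replicate 2. The inducible libraries were all low, at 4.23 and 13.8 CPM uninduced and at 3.46 and 7.08 CPM induced. The pLEX_306 libraries were thus the only high ones, whether they carried GFP or DNp63. Replicate 1 was 83.1-fold replicate 2 in GFP, with a 95% counting interval of 44.8 to 174, and 25.7-fold in DNp63, with an interval of 18.3 to 37.0. Averaged over both groups on the log2 scale, this ratio ranked 1 of 12303 tested genes. Replicate 1 was instead the lower library of the inducible groups, at 0.306-fold replicate 2 when uninduced and 0.488-fold when induced. These intervals cover counting error only.

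**Figure D1:**
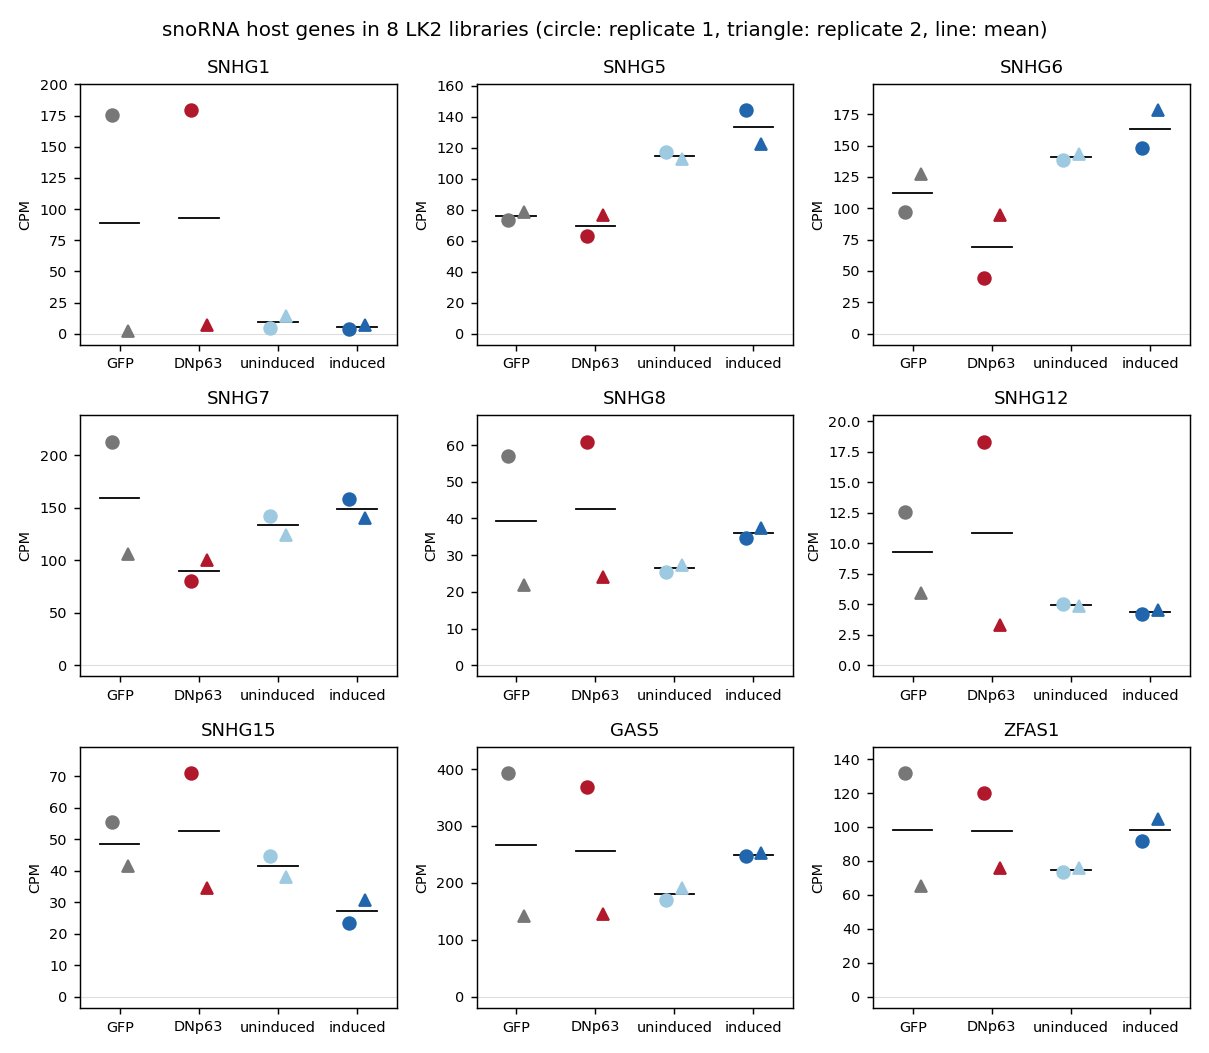
Level of each of the 9 snoRNA host genes in CPM (vertical axis, from 0, a different scale in each panel) in the 4 groups (horizontal axis). Circles are replicate 1, triangles replicate 2 and lines the group mean of 2 libraries. SNHG1 is at 175.9 and 179.2 CPM in the first constitutive libraries and at 13.8 CPM or below in the other 6, and GAS5, SNHG8 and SNHG12 show the same order of the constitutive libraries with smaller ratios.

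GAS5, named for its build-up in growth-arrested cells, was at 392.4 and 142.5 CPM in GFP and 367.7 and 145.5 CPM in DNp63. SNHG8 was at 56.9 and 21.8 CPM in GFP and 60.9 and 24.1 CPM in DNp63. SNHG12 was at 12.6 and 5.93 CPM in GFP and 18.3 and 3.30 CPM in DNp63. In all of these the pLEX_306 library was the high one in both groups, by 2.75-fold and 2.53-fold for GAS5, 2.61-fold and 2.53-fold for SNHG8, and 2.12-fold and 5.55-fold for SNHG12. With SNHG1, this makes 4 of 9 members over 2-fold higher in replicate 1 of both groups, where 2.02% of all tested genes were, and 0 of 9 over 2-fold lower in both, where 1.01% were. The members were chosen on this contrast, so nothing is read from those shares.

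ZFAS1, the host antisense to the start of the zinc finger gene ZNFX1, lay just outside that limit, at 131.5 and 65.2 CPM in GFP (2.02-fold) and 119.7 and 75.6 CPM in DNp63 (1.58-fold). SNHG12 lay just inside it, with its 2.12-fold ratio in GFP. SNHG15 was at 55.4 and 41.5 CPM in GFP and 70.9 and 34.5 CPM in DNp63, so its ratio passed 2-fold in DNp63 alone. The other 3 did not share the order. SNHG7 was higher in replicate 1 of GFP (212.8 against 106.3 CPM) and lower in replicate 1 of DNp63 (80.3 against 99.9 CPM). SNHG5 was at 73.5 and 78.8 CPM in GFP and 62.9 and 76.6 CPM in DNp63. SNHG6 was lower in replicate 1 of both, at 97.2 and 127.7 CPM in GFP and 44.6 and 94.5 CPM in DNp63. The inducible pairs were closer together, with ratios of 0.765 to 1.18 for the 8 members other than SNHG1. Summed over the 9 members, the level was 1208 and 592 CPM in GFP, 1004 and 561 CPM in DNp63, 720 and 731 CPM in uninduced and 854 and 877 CPM in induced libraries.

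**Figure D2:**
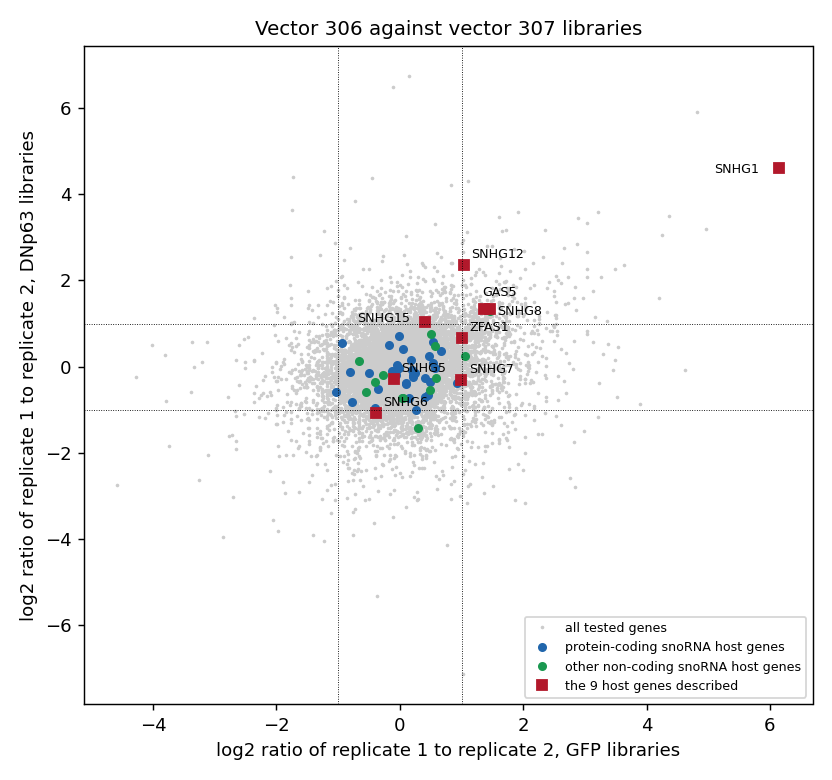
Log2 ratio of replicate 1 to replicate 2 (CPM, prior count 2) in the GFP libraries (horizontal axis) and the DNp63 libraries (vertical axis), 1 point per tested gene, with dotted lines at a 2-fold ratio. SNHG1 lies far to the upper right, GAS5, SNHG8 and SNHG12 lie past the lines in the same corner, and 0 protein-coding hosts do.

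Ratios of other snoRNA hosts are given as values only, because the members were picked on this contrast. Over all tested genes, 2.02% were over 2-fold higher in replicate 1 of both constitutive groups. Of 13 other non-coding hosts tested, 1 was, SNHG17, with log2 ratios of 1.46 in GFP and 1.30 in DNp63. The medians of these hosts were 0.29 in GFP and -0.27 in DNp63. Of 34 protein-coding hosts, most of them ribosomal protein genes, 0 passed 2-fold in both groups, with medians of 0.13 and -0.15. EIF4A1, a protein-coding host for a translation initiation helicase, was listed at 0 in all 8 libraries. Whether the assignment of reads to overlapping genes played a part in this or in other low counts was not tested. Over all tested genes the medians were 0.00 and -0.01.

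Other gene groups were read against the same contrast, as descriptions. ATF4 stress response genes, which cells switch on under amino acid shortage or protein folding stress, were higher in replicate 1 of both groups for 15 of 18. Over all genes, 3455 of 12303 were. In this list 6 genes were over 2-fold higher in both groups, where 2.02% of all tested genes were. Their median log2 ratio was 1.76 in GFP, 0.83 in DNp63, 0.01 in uninduced and 0.06 in induced libraries. The largest mean ratios of the list were those of CEBPB, a transcription factor of that response, and DDIT4, an inhibitor of mTORC1. Their log2 ratios in GFP and DNp63 were 3.14 and 1.76 for CEBPB, and 2.57 and 2.00 for DDIT4. HSPA5 (2.30 and -1.55) and XBP1 (1.94 and -0.41) differed in sign between the groups, and SLC7A11 was lower in both (-0.16 and -0.73). For the snoRNP core proteins, which bind snoRNAs, the medians were -0.13 in GFP and 0.51 in DNp63 over 8 genes. For 14 nonsense-mediated decay factors they were 0.00 and -0.11, and for 14 ribosome biogenesis and MYC genes -0.18 and 0.25, with 0 genes over 2-fold in both groups in each of these lists. The part of the stress genes, of the depth of GFP replicate 1 or of the vector in the SNHG1 values was not tested.

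SNHG1 and SLC3A2, which encodes the heavy chain of an amino acid transporter and is itself in the ATF4 list, start 188 bases apart on opposite strands without overlap. SLC3A2 was at 1472 and 656 CPM in GFP, 2578 and 1524 CPM in DNp63, 646 and 608 CPM in uninduced and 819 and 795 CPM in induced libraries. It too was higher in replicate 1 of both constitutive groups, by log2 ratios of 1.17 and 0.76, far below those of SNHG1 (6.15 and 4.61). Among genes that overlap a member on the opposite strand, ZBTB37 at GAS5 was at 0.287 to 4.45 CPM and ZNFX1 at ZFAS1 at 14.4 to 21.7 CPM over the 8 libraries. TRNAU1AP at SNHG12 was at 15.1 to 22.9 CPM, FAM69B at SNHG7 at 51.5 to 80.2 CPM, and MCMDC2 at SNHG6 at 0.494 CPM or below. The libraries were made with a directional kit, but how strand was treated in counting is not given here, so reads of a member and of its antisense partner cannot be told apart.

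The genes whose pattern over the 8 libraries was nearest to SNHG1 were sought among tested genes that averaged 5 CPM or more, by the root mean square difference in log2 CPM after centring each gene. The nearest were LINC00998 (0.86), EIF3E (0.95), DLGAP1-AS2 (0.98), C14orf2 (1.01), INHBE (1.08) and COX7B (1.09). EIF3E, a subunit of the translation initiation factor eIF3, was at 183.3 and 5.51 CPM in GFP, 68.6 and 7.18 CPM in DNp63, and 7.87 to 11.6 CPM in the inducible libraries. COX7B, a subunit of cytochrome c oxidase, was at 33.6 and 0.847 CPM in GFP, 21.4 and 0 CPM in DNp63, and 1.48 to 3.21 CPM in the inducible libraries. LINC00998 was at 24.4 and 0.847 CPM in GFP, 19.1 and 1.36 CPM in DNp63, and 0.590 to 1.94 CPM in the inducible libraries. All 6 were therefore high in the pLEX_306 libraries and low in the other 6, which is what the measure selects for.

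**Figure D3:**
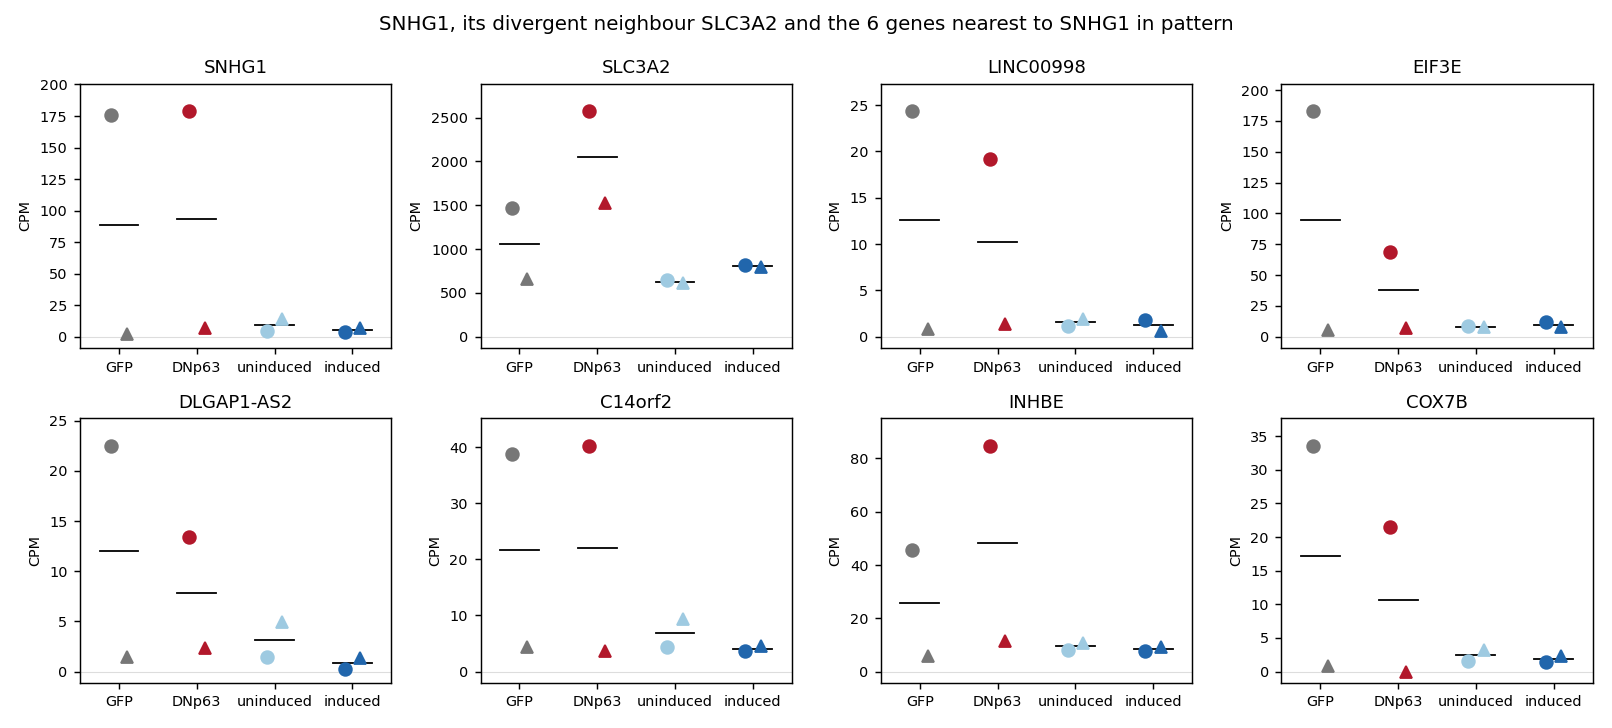
Level in CPM (vertical axis, from 0, a different scale in each panel) of SNHG1, its divergent neighbour SLC3A2 and the 6 genes nearest to SNHG1 in pattern, by group (horizontal axis). Circles are replicate 1, triangles replicate 2 and lines group means. EIF3E is at 183.3 and 68.6 CPM in the first constitutive libraries and at 11.6 CPM or below in the other 6, while SLC3A2 is at 608 CPM or above in every library.

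With constitutive DNp63, none of the 9 hosts passed the test against GFP, while 8.16% of all tested genes did. SNHG1 averaged 89.0 ± 123 CPM (SD, n = 2) in GFP and 93.1 ± 122 CPM in DNp63, a log2 difference of 0.08 ± 1.34 (SE). With the replicate number, and so the vector, as a block, the difference was 0.46 ± 0.32 with an adjusted p of 0.427, not called. Within pLEX_306 it was 1.02-fold GFP, and within pLEX_307 it was 3.30-fold, from 10 and 36 counts. GAS5, ZFAS1, SNHG8, SNHG12, SNHG15 and SNHG5 differed by log2 values of -0.13 to 0.22, with SEs of 0.19 to 0.65 and adjusted p-values of 0.769 to 0.997. Both DNp63 libraries were above both GFP libraries for 0 of 9 members, against 22.4% of all genes, and below them for 2 of 9, SNHG6 and SNHG7, against 22% of all genes.

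SNHG7, a host of box H/ACA snoRNAs, was at 159.6 ± 75.3 CPM in GFP and 90.1 ± 13.9 CPM in DNp63, a log2 difference of -0.82 ± 0.29. Its unadjusted p was 0.0174 in edgeR's quasi-likelihood test, and its adjusted p was 0.118. The ratio of DNp63 to GFP was 0.377 within pLEX_306 and 0.940 within pLEX_307, so the difference lay mostly in 1 vector. The value rested on single libraries: it was -1.25 with an adjusted p of 0.0162 without GFP replicate 2, and -0.24 with an adjusted p of 0.544 without GFP replicate 1. SNHG6, host of 1 box C/D snoRNA, was at 112.4 ± 21.6 CPM in GFP and 69.5 ± 35.3 CPM in DNp63, a log2 difference of -0.69 ± 0.30 with an unadjusted p of 0.0455 and an adjusted p of 0.207. Its ratio was 0.459 within pLEX_306 and 0.740 within pLEX_307. With the replicate number, and so the vector, as a block in the edgeR fit, SNHG6 was called, at -0.76 with an adjusted p of 0.0443, but its value too rested on single libraries. Without the block it was -1.34 with an adjusted p of 0.00601 when DNp63 replicate 2 was left out, and -0.26 with an adjusted p of 0.538 when DNp63 replicate 1 was left out.

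The protein-coding hosts gave more calls in this comparison. Of 34 tested, 10 were called lower with constitutive DNp63, where 3.99% of all genes were, and 0 were called higher. Their median log2 difference was -0.55, against 0.01 over all genes. RPL7A, RPL13A and RPL27A, proteins of the large ribosomal subunit, fell by 1.01, 0.80 and 0.78 on the log2 scale, with edgeR adjusted p-values of 0.0209, 0.0334 and 0.0218. In the induced comparison the same 3 genes had values of 0.09, -0.04 and 0.04, none called. Of the 13 other non-coding hosts 0 were called, with a median of -0.33. FBL, the methyltransferase of box C/D particles, fell by 0.68 with an adjusted p of 0.0425, the 1 call among 8 snoRNP proteins. Among decay factors EIF4A3, the helicase of the exon junction complex, rose by 0.95 with an adjusted p of 0.0227, the 1 call of 14. Among ribosome biogenesis and MYC genes BOP1 and MYC fell by 0.83 and 0.91, with adjusted p-values of 0.0195 and 0.0435, 2 calls of 14. Among 18 ATF4 genes PPP1R15A, a phosphatase subunit that restores translation after stress, rose by 1.21 with an adjusted p of 0.0218, and the other 17 were not called. In either direction 8.16% of all tested genes were called. With 1 or 2 calls each, nothing is read about the snoRNP, decay factor, ribosome biogenesis or ATF4 lists.

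**Figure D4:**
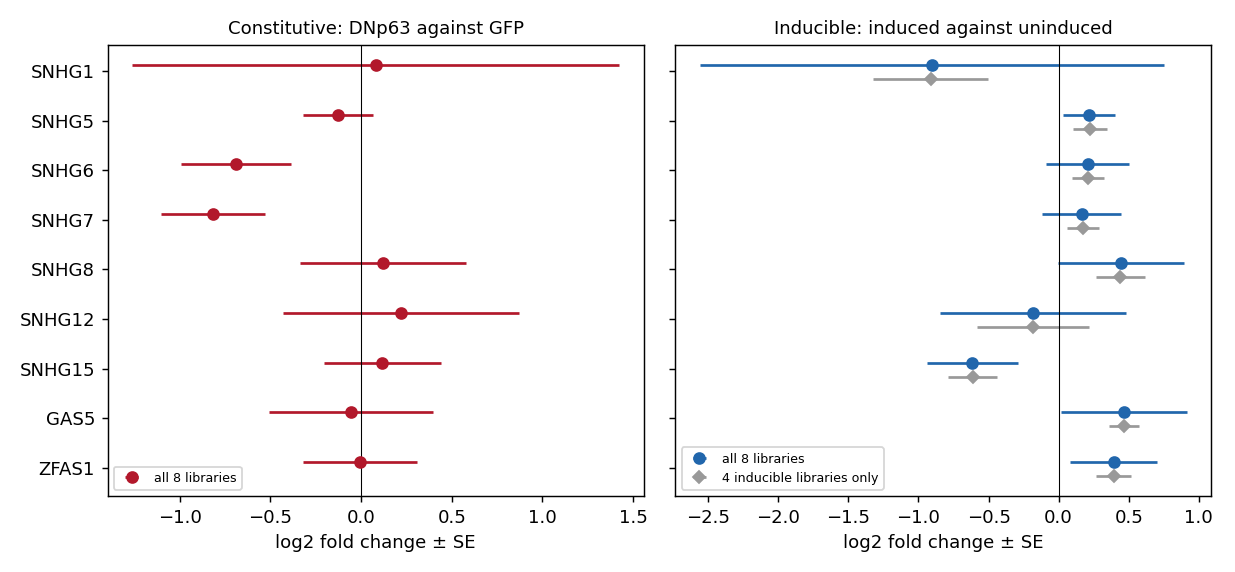
Log2 fold change of each host gene with its standard error (horizontal axis, bars), for constitutive DNp63 against GFP (left) and induced against uninduced cells (right). Round points come from the fit of all 8 libraries and grey diamonds from the 4 inducible libraries alone; SNHG15 and GAS5 keep their values (-0.61 and 0.47) with smaller errors in the latter.

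With induced DNp63, again 0 of 9 hosts were called in the fit of all 8 libraries, where 0.284% of genes were. Both induced libraries were above both uninduced ones for 5 of 9 members (SNHG5, SNHG6, SNHG8, GAS5 and ZFAS1), against 22.9% of all genes, and below them for 2 of 9 (SNHG12 and SNHG15), against 24%. GAS5 was at 169.3 and 191.1 CPM uninduced and at 246.4 and 252.0 CPM induced, groups that did not overlap. Its log2 difference was 0.47 ± 0.45, with an adjusted p of 0.988. SNHG15, host of 1 box H/ACA snoRNA, was at 44.7 and 38.1 CPM uninduced and at 23.5 and 30.7 CPM induced, a log2 difference of -0.61 ± 0.32 with an adjusted p of 0.922. These errors rest on a spread shared by all 8 libraries, among them the constitutive pairs, which spread widely for GAS5. With the replicate block in the edgeR fit of all 8 libraries, neither gene was called. GAS5 was then at 0.47 ± 0.19 with an adjusted p of 0.530, and SNHG15 at -0.62 ± 0.24 with an adjusted p of 0.502. In an edgeR fit of the 4 inducible libraries alone, GAS5 was called at 0.47 ± 0.10 with an adjusted p of 0.00372, and SNHG15 at -0.61 ± 0.18 with an adjusted p of 0.0330. That fit called 771 genes in all, against 35 in the fit of 8 libraries. The share of its tested genes that this makes is not given here, so nothing is read from the calls of GAS5 and SNHG15.

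ZFAS1 was at 73.7 and 75.6 CPM uninduced and at 91.8 and 104.5 CPM induced, a log2 difference of 0.39 ± 0.31. Its value was 0.39 ± 0.13 with an adjusted p of 0.0644 in the inducible libraries alone. SNHG8 was at 25.4 and 27.4 CPM uninduced and at 34.6 and 37.4 CPM induced, a difference of 0.44 ± 0.45. SNHG5 was at 116.9 and 112.8 CPM uninduced against 144.0 and 122.5 CPM induced (0.22 ± 0.19), and SNHG6 at 138.7 and 143.6 against 148.3 and 178.0 CPM (0.21 ± 0.30). The remaining 3 hosts had overlapping groups or low levels. SNHG7 was at 142.7 and 123.7 CPM against 158.1 and 140.1 CPM (0.16 ± 0.28), and SNHG12 at 5.03 and 4.86 CPM against 4.20 and 4.52 CPM (-0.18 ± 0.67). SNHG1 was at 9.02 ± 6.77 CPM uninduced and 5.27 ± 2.56 CPM induced, a difference of -0.91 ± 1.66 that turned to 0.27 without uninduced replicate 2. In the other lists, 0 genes were called with induction.

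The averaged effect of both systems called 0 of 9 members, against 5.67% of genes, with adjusted p-values of 0.438 to 0.991 and a median log2 value of 0.02 against -0.01 over all genes. Unadjusted p was under 0.05 for 0 of 9 members in the averaged and induced comparisons and for 2 in the constitutive one. The effects of the 2 systems differed for 0 of 9 members by the test of the difference, where 0.545% of genes differed. The smallest adjusted p-values among members were those of SNHG7, with a difference (induced minus constitutive) of 0.98 ± 0.40, an unadjusted p of 0.0347 and an adjusted p of 0.365, and of SNHG6, with 0.90 ± 0.42 and an adjusted p of 0.433. For SNHG6 this difference was 1.54 with an adjusted p of 0.0222 without DNp63 replicate 2, and 0.47 with an adjusted p of 0.510 without DNp63 replicate 1. For SNHG7 it was 0.41 with an adjusted p of 0.537 without GFP replicate 1.

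The control groups were set side by side because SNHG1 was high in 1 of the 4 control libraries. That library is among the values by which the members were picked, so nothing is read from the SNHG1 tests here. Uninduced against GFP cells, 0 of 9 members were called, as against 0.00813% of genes, which is 1 gene. SNHG1 had a log2 difference of -3.19 ± 1.45 with an adjusted p of 0.574. It was -1.59 with an adjusted p of 0.0940 with the replicate block, and reversed to 2.16 without GFP replicate 1. SNHG5 was at 76.2 ± 3.71 CPM in GFP and 114.9 ± 2.94 CPM uninduced. Its log2 difference was 0.59 ± 0.19, with an unadjusted p of 0.0106 and an adjusted p of 0.398 in the edgeR fit. The vector and the gene it carried differ together between these groups and cannot be told apart.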

How the data were processed

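The deposited values are raw read counts per gene symbol. Per the submitters' processing notes, the authors used TopHat2 2.1, HTSeq, SAMtools and DESeq2 with hg19. The sources used here do not give the annotation or how strand was treated in counting, and per the labels' protocols libraries were polyA-selected, directional and read from both ends for 38 bp. The reference at hand is of another build, so coordinates are given only for RefSeq promoter windows.

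Genes were kept by filterByExpr (minimum count 10), which left 12303 of 26760, with TMM (trimmed mean of M-values) scaling. One edgeR 4.0.16 fit (R 4.3.3; quasi-likelihood, legacy estimates) gave 4 group means over 8 libraries, and two-sided tests were adjusted by Benjamini-Hochberg over all tested genes with calls at an adjusted p under 0.05. Standard errors come from the same fit. The script was tested on simulated data. The members, lists and tests were chosen with earlier results of these data known. Named were all members, the 6 genes nearest to SNHG1, up to 3 genes per list by the smallest averaged p and up to 3 by replicate ratio, and opposite-strand neighbours. EIF4A1, HSPA5, XBP1, SLC7A11 and the marker genes were named after their values were seen.

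Constitutive libraries of the same number share a vector per the labels, and their deviations from group means correlated at 0.22 across 12303 genes, which are not independent replicates. The inducible libraries share only a number (-0.03). Alternatives were DESeq2 1.42.0 with its own size factors, RLE scaling, no filter, a replicate block, each system alone, other folds and prior counts, each library left out and, chosen after seeing the data, both constitutive libraries of 1 number left out. Library totals of 2758158 to 10372248 counts set the counting error.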

Additional observations from a re-analysis of the deposited data

How the results depend on the processing

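Of 9 members, 0 were called in any comparison under RLE scaling or DESeq2. The calls of all genes moved by over 1.5 times with DESeq2 in the induced comparison (110), the difference between systems (265) and the control groups (57). Without the filter, 1372 genes were called in the averaged, 1791 in the constitutive and 242 in the induced comparison, 558 in the difference and 245 between the control groups. Of the members, 2 were then called in the constitutive comparison (SNHG6 at -0.72 and SNHG7 at -0.84) and 1 between the control groups (SNHG1 at -3.15). That fit of 18159 genes gave every gene the shared spread in place of its own, so the SNHG1 call takes no account of the spread of SNHG1.

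With the replicate block, 87 genes were called in the induced comparison, 270 in the difference and 19 between the control groups, and 1 member was called in the constitutive comparison (SNHG6, beside its value above). The blocked values of SNHG12 and ZFAS1 changed sign in the constitutive comparison, to -0.061 and 0.038, and the block changed no other call of a member. Each system alone gave 275 constitutive calls and 771 induced calls, the latter with 2 members, GAS5 and SNHG15. The shares of tested genes called in these fits are not given here, so nothing is read from the member calls.

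Leaving out both constitutive libraries numbered 1 or both numbered 2 was chosen after seeing the data, and the spread then rests on the inducible pairs alone. Each constitutive group is then 1 library. The members were picked on the contrast between the libraries kept and those left out. The calls of members below are therefore listed as values only, and nothing is read from them. Without those numbered 1, calls of all genes were 2859 averaged, 2873 constitutive, 817 induced, 1685 in the difference and 957 between control groups. Members called there were 1 in the averaged, 2 in the induced and 2 in the difference, and 2 between the control groups. In the constitutive comparison SNHG12 (-0.85), SNHG15 (-0.27), GAS5 (0.023) and ZFAS1 (0.21) changed sign there, as did SNHG1 between the control groups (2.16). Without those numbered 2, calls of all genes were 2104 averaged, 2192 constitutive, 811 induced, 1597 in the difference and 1694 between control groups, and members called were 2, 2, 3, 4 and 8 in that order. SNHG6 (-1.13) and SNHG7 (-1.42) were then called in the constitutive comparison.

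Leaving out 1 library at a time, the averaged calls ran from 225 (without induced replicate 1) to 1113 (without DNp63 replicate 2), with 0 to 1 member. Constitutive calls ran from 452 (without GFP replicate 2) to 1438 (without DNp63 replicate 2), with 0 to 1 member. Induced calls ran from 2 (without uninduced replicate 2) to 104 (without DNp63 replicate 1). Calls in the difference ran from 0 (without induced replicate 1) to 446 (without DNp63 replicate 2), with 0 to 1 member, and those between control groups from 0 (without uninduced replicate 1) to 43 (without GFP replicate 2). Constitutive values ran from -3.63 to 5.42 for SNHG1, -0.28 to 0.00069 for SNHG5, -1.34 to -0.26 for SNHG6, -1.25 to -0.24 for SNHG7, -0.68 to 0.94 for SNHG8, -1.44 to 1.04 for SNHG12, -0.48 to 0.56 for SNHG15, -0.87 to 0.84 for GAS5 and -0.45 to 0.57 for ZFAS1. The difference between systems ran from 0.47 to 1.54 for SNHG6 and from 0.41 to 1.41 for SNHG7. SNHG1 ran from -1.45 to 0.27 with induction and from -4.36 to 2.16 between the control groups. In these fits the lone library is assumed to vary like the other groups.

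At a limit of 1.5-fold in place of 2-fold, 720 genes were higher in replicate 1 of both constitutive groups and 499 were lower. A prior count of 0.5 left these counts within 1.5 times. Where no cause is given here, the cause was not tested. SNHG1 in GFP replicate 2 rests on 10 counts, which limits its ratios.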
